A study of Homo sapiens with 6 samples.

Results

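Solute carriers (SLC and SLCO genes) are membrane proteins that move nutrients, ions, metabolites and drugs across the plasma membrane and the membranes of organelles. Unlike pumps that use ATP, they move their substrates down a gradient or couple them to the movement of sodium, protons or another solute. They are grouped into numbered families by sequence, and members of a family often share a substrate class. Melanoma cells, like other dividing cells, take up amino acids and sugars through carriers of this superfamily, and mitochondria import metal ions and cofactors through the SLC25 family.

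The genes described here are all those in the deposited count table whose name begins with SLC and a number or with SLCO. Antisense genes named after a carrier were left out, as were SLC7A11 and SLC2A1. This gave 38 genes of the 2778 features in the table, from 23 families, and they were divided into 10 groups by transported substrate. In the GENCODE 29 annotation 385 protein-coding genes fit the same rule, so the table lists 9.87% of them, against 8.99% of all protein-coding genes. The other carriers, among them the 31 genes of SLC35 (nucleotide sugars), the 19 of SLC6 (neurotransmitters and amino acids) and the 14 of SLC39 (zinc uptake), were not analysed here.

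RNA was sequenced from A375 cells, an established human melanoma line, in 3 libraries from wildtype cells, called WT, and 3 libraries from CYGB-overexpressing cells, called CYGB-OE, all untreated and grown in serum-containing medium. CYGB encodes cytoglobin, a haem-containing globin, and the study asked which transcripts differ when it is overexpressed. The labels name no empty vector, and the promoter driving CYGB and the clonality of the line were not given in the sources used here. Since separate cultures are not named for the libraries of a group, the spread that p-values rest on may be technical.

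CYGB itself was checked first. Its normalized count, the count after scaling between libraries, was 36.3, 37.2 and 39.3 in the WT libraries, in replicate order as throughout, against 24020, 23160 and 23870 with CYGB overexpressed; every library matched its label. Column totals ran from 1533260 to 2801576 counts, but the table holds only features that differed between the groups: the log2 ratios of its group means leave a gap from -0.995 to 0.995. These sums are thus not the depths of the libraries, and a carrier's presence in the table already means that it differed about 2-fold or more between these same libraries. CYGB-OE replicate 1 stood apart from the other CYGB-OE libraries. Of 11 melanocyte and melanoma markers, DCT and TYRP1 were in the table, with a summed normalized count of 23.7 to 49.95 in the WT libraries and 0.909 to 8.53 in the CYGB-OE libraries, where DCT was at 0 counts. Of the fibroblast markers, COL1A2 and COL3A1, 2 of 6 listed, summed to 1.1 to 3.95 in WT and 38.4 to 192.7 in CYGB-OE. KRT14 (1 of 6 keratinocyte markers) went from 13.8 to 20.6 in WT to 51.8 to 68.1, KDR (1 of 4 endothelial markers) from 113.7 to 126.5 to 8.93 to 10.9, and ITGAM (1 of 5 leukocyte markers) from 79.8 to 116.6 to 0 to 6.4. DCT and COL3A1 did not pass the filter on low counts, and the listed markers outside the table were not analysed. The part of the markers in the carrier results was not tested. In bulk RNA, fewer cells of a type and less RNA per cell cannot be told apart.

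Most of the listed carriers were lower in CYGB-OE, and the few that were higher were mainly amino acid carriers. Of the 38 genes, 36 passed the filter on low counts; 6 were higher and 30 lower (edgeR quasi-likelihood test, Benjamini-Hochberg adjusted over all features tested, threshold 0.05). Of all 2468 features tested 28.9% were higher, 70.9% lower and 99.8% called in either direction, and since the features in the table are those that differ, nothing is read from the carriers' count. The same holds for the counts within substrate groups given below. The median log2 fold change was -1.48 for the carriers and -1.29 for all features tested. Called folds ran from 2.08 to 11.6 among the lower carriers and from 2.06 to 4.34 among the higher ones. Normalized counts of the groups did not overlap for any of the 38 carriers, as for 98.3% of all features. These directions depend on how the level between the groups was set. Here the middle of the empty band of log2 ratios was placed at 0; with TMM normalization over the table, which raises every log2 fold change by 1.2, all 6 higher carriers stayed higher, 9 of the 30 lower ones stayed lower past the threshold, and 5 turned slightly positive. A scaling that raises every value cannot turn a higher carrier lower, so it is no check on the 6. Of all features tested 28.9% were higher and 19.4% lower under that scaling.

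**Figure D1:**
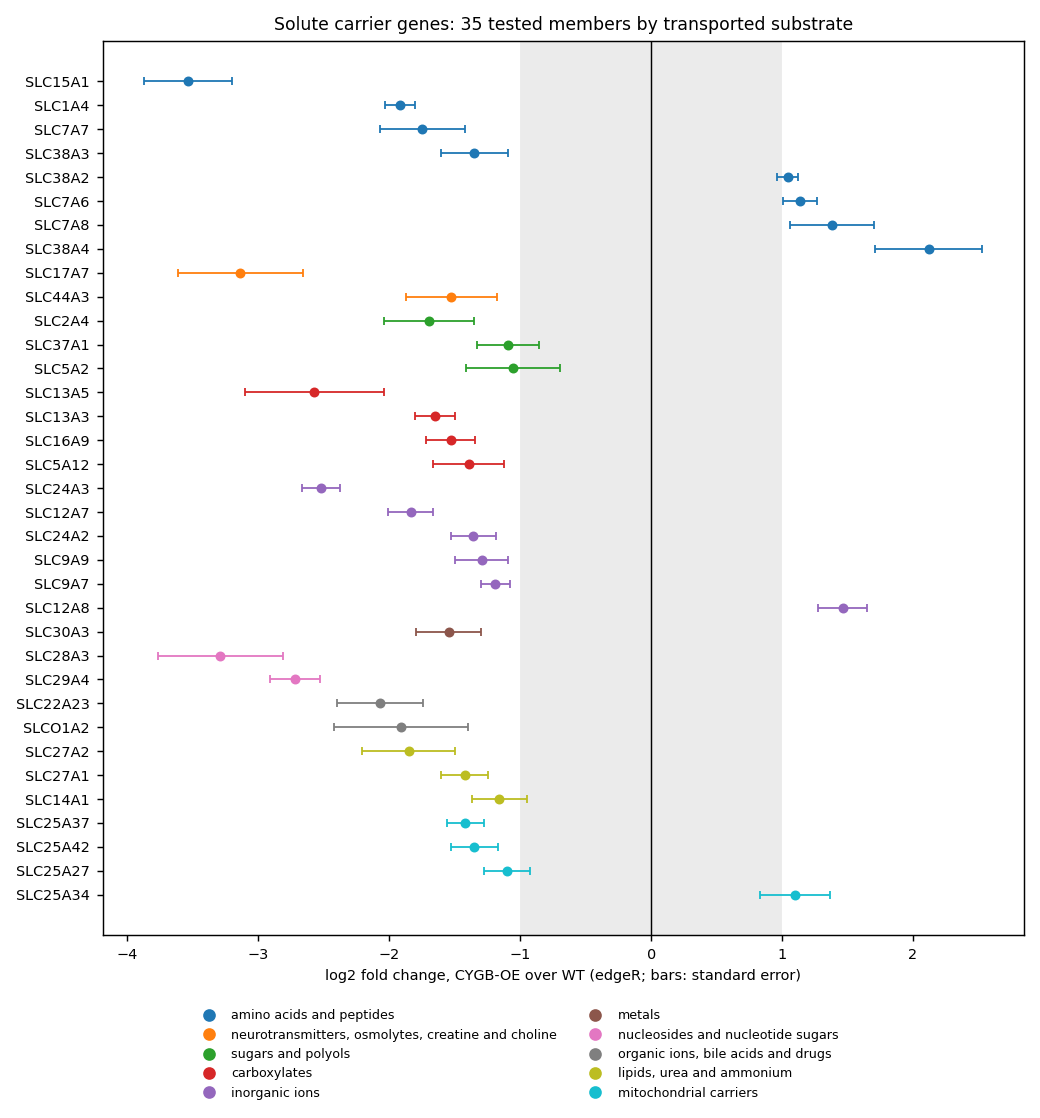
Log2 fold change of CYGB-OE over WT (horizontal axis; edgeR, bars are standard errors, n = 3 libraries a group) for 35 of the 36 solute carrier genes tested, coloured by substrate group; the grey zone is the band from -0.995 to 0.995 that holds no feature of the table. The 6 genes on the right are SLC38A2, SLC7A6, SLC7A8, SLC38A4, SLC12A8 and SLC25A34; SLC14A1, SLC25A27, SLC37A1, SLC5A2 and SLC9A7 turn slightly positive under TMM over the table.

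Amino acid and peptide carriers moved both ways: of 8 in the table, all tested, 4 rose and 4 fell, and under TMM over the table the same 4 stayed higher while 2 stayed lower past the threshold and 4 below 0. Of all features tested 28.9% were higher and 70.9% lower. The 4 that rose were SLC38A2, SLC38A4, SLC7A6 and SLC7A8. Because they rose together, the 250 bases before their most upstream RefSeq start (GRCh38.p14) are shown, 5′ to 3′ on the strand of the gene. Capitals mark matches, on either strand, to 4 motifs: the E-box CACGTG, the amino acid response element TGATGNAA, the antioxidant response element TGACNNNGC and the NF-kB site. The windows are chr12:46372774-46373023 (minus strand) for SLC38A2, chr16:68264276-68264525 (plus strand) for SLC7A6, chr14:23183661-23183910 (minus strand) for SLC7A8 and chr12:46825998-46826247 (minus strand) for SLC38A4.
SLC38A2: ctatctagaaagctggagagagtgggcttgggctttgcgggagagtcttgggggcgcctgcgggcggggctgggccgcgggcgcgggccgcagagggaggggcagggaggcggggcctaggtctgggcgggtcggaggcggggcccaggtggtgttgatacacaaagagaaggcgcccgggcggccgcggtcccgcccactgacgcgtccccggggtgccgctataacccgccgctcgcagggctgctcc
SLC7A6: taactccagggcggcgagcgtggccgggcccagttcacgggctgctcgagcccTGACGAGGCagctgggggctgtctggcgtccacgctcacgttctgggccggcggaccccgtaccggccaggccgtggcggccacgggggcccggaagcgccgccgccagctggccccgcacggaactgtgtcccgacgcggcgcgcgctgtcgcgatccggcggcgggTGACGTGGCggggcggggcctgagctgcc
SLC7A8: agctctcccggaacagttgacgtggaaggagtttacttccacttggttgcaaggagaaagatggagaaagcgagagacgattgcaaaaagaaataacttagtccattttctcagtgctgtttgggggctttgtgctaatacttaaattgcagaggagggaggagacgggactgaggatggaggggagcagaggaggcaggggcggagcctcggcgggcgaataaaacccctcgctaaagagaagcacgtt
SLC38A4: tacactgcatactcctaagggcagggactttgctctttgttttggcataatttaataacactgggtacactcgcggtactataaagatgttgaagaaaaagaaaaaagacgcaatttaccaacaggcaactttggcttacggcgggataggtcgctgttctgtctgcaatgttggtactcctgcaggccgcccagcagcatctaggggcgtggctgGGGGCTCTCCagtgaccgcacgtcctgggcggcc
The SLC7A6 window held 2 matches to the antioxidant response element, the SLC38A4 window 1 to the NF-kB site, and the other two windows none of the 4 motifs. By GENCODE 29 the SLC38A4 window lies inside the gene (46764761 to 46832408), so its match is not upstream of the GENCODE 5′ end. The windows of SLC38A2, SLC7A6 and SLC7A8 partly overlap their genes at that end. The amino acid response element, which ATF4 binds, was in none of these windows. Bases outside these windows, further upstream or in the rest of the genes, were not searched, so this does not say that the genes lack the element. Of the 38 carriers, 31 matched the promoter table, and those not matched included SLC38A3, SLC2A4, SLC13A3, SLC24A3, SLC28A3 and SLC25A37. Among the 31, the antioxidant response element was in 9.68% of windows against 11.1% of 27305 gene windows, the NF-kB site in 12.9% against 9.58%, the E-box in 6.45% against 6.46% and the amino acid response element in 6.45% against 3.19%. The last of these shares was 2 genes, SLC17A7 and SLC9A9, both lower in CYGB-OE. The E-box and the antioxidant response element can share bases, but no matches overlap in the windows shown. A match describes letters in the window, not a bound site.

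SLC38A2 (ENSG00000134294, chromosome 12, 46358189 to 46372867, GRCh38) encodes SNAT2, a sodium-coupled carrier of small neutral amino acids such as alanine and glutamine. Its normalized count was 11730, 12670 and 12100 in WT and 23260, 25570 and 26350 in CYGB-OE. All CYGB-OE libraries lay well above all WT libraries, with little spread in either group. The log2 fold change was 1.04 (SE 0.08; edgeR adjusted p = 1.01e-05), and 2.24 under TMM over the table. SLC38A2 made up 32.4% to 34.7% of all normalized counts of the 38 carriers in WT and 63.3% to 69.7% in CYGB-OE. These shares do not depend on the level set between the groups. They are shares of the carriers in the table, which holds only features that differed, and not of all carriers expressed. In a set of mostly lower carriers, a larger share for a higher one follows from that selection.

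SLC38A4, which encodes SNAT4, a related sodium-coupled amino acid carrier known from liver, lies on chromosome 12 at 46764761 to 46832408, 391.9 kb from SLC38A2. It was scarce in WT, at 16.5, 18.2 and 10.6 normalized counts, and reached 34.1, 75.9 and 89.1 in CYGB-OE. The rise was smallest in the first CYGB-OE library. The log2 fold change was 2.12 (SE 0.41; edgeR adjusted p = 0.00109), the largest rise of the carriers tested, and without CYGB-OE replicate 1 it was 2.42. The remaining SLC38 gene in the table went the other way. SLC38A3 encodes SNAT3, a glutamine carrier of liver and astrocytes. It fell from 195.8, 247.4 and 239.1 normalized counts in WT to 57.6, 118.4 and 91.8 in CYGB-OE, with a log2 fold change of -1.35 (SE 0.26; -0.15 under TMM over the table).

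The SLC7 genes in the table encode light chains that work as pairs with the heavy chain SLC3A2. SLC7A6 (chromosome 16, 68264516 to 68301823) encodes y+LAT2, an exchanger of cationic for neutral amino acids. It had 1652, 1828 and 1669 normalized counts in WT and 4491, 3416 and 3410 in CYGB-OE, so each CYGB-OE library was above each WT library, and replicate 1 was the highest. The log2 fold change was 1.14 (SE 0.13; edgeR adjusted p = 5.95e-05). Exons of SLC7A6OS on the opposite strand cover 3371 of its 7588 exonic bases, and with the strand setting of the counting unknown, reads of these 2 genes cannot be told apart there. SLC7A8, which encodes the neutral amino acid exchanger LAT2, rose from 8.80, 17.4 and 14.9 to 33.1, 32.4 and 43.6, a log2 fold change of 1.38 with an SE of 0.32. SLC7A7, which encodes y+LAT1, lies 295.5 kb from SLC7A8 on chromosome 14 and fell from 33.0, 26.1 and 31.9 to 6.4, 12.3 and 8.18, a log2 fold change of -1.75 (SE 0.33; -0.56 under TMM over the table). SLC7A6 and SLC7A7 encode close relatives with the same exchange activity, and they moved in opposite directions. Under TMM over the table the fall of SLC7A7 was no longer past the threshold.

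SLC1A4 (chromosome 2, 64988477 to 65023865) encodes ASCT1, an exchanger of alanine, serine, cysteine and threonine. It fell from 1308, 1405 and 1392 normalized counts in WT to 358.4, 331.7 and 395.3 in CYGB-OE. Both groups were tight and far apart, and the log2 fold change was -1.92 (SE 0.11; edgeR adjusted p = 4.14e-06). SLC15A1 encodes PEPT1, the proton-coupled carrier of short peptides in the gut. With 68.2, 45.8 and 56.3 normalized counts in WT and 4.27, 4.47 and 5.45 in CYGB-OE, it had the largest fall of all carriers tested, at -3.54 on the log2 scale (SE 0.33; edgeR adjusted p = 2.16e-05). Its CYGB-OE libraries held 4, 4 and 6 counts, so the size of this fall is uncertain. Both falls stayed past the threshold under TMM over the table.

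**Figure D2:**
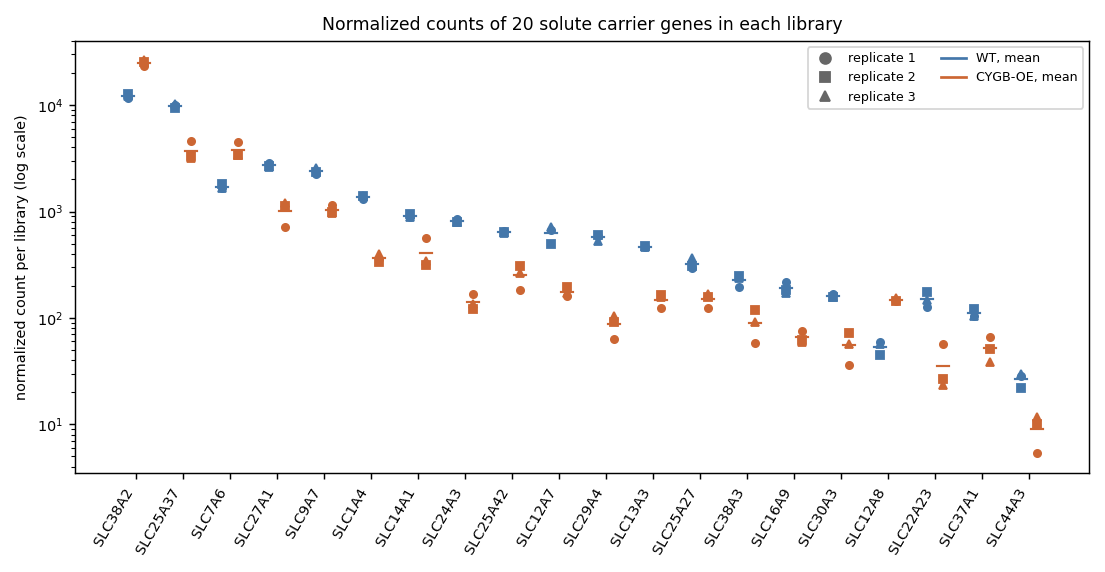
Normalized count in each library (vertical axis, log scale) of the 20 solute carrier genes chosen by size of change and abundance within their substrate group; marker shapes are replicates, blue is WT, orange is CYGB-OE, and lines are means of 3 libraries. SLC38A2 and SLC25A37 are the most abundant by count; SLC38A2, SLC7A6 and SLC12A8 are higher in CYGB-OE, and SLC22A23, SLC14A1 and SLC27A1 show CYGB-OE replicate 1 away from the other two.

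Of 19 listed genes of the amino acid response and of amino acid enzymes, 3 were in the table. All 3 were lower, as were 70.9% of all features tested, so nothing is read from this count. None of the 3 stayed past the threshold under TMM over the table (log2 fold changes -0.26 for ASNS, -0.45 for DDIT3 and -0.36 for ASS1). ASNS (asparagine synthetase) is, like SLC38A2, which rose, a target of the ATF4 response to amino acid shortage. It fell from 119.4 ± 17.9 to 43.3 ± 18.3 normalized counts (SD, n = 3 each, log2 fold change -1.45). Its call was lost when p-values were adjusted over all annotated genes (edgeR adjusted p = 0.051). DDIT3, a transcription factor of the same response, fell from 733.4 ± 182.8 to 232.7 ± 48.4 (log2 fold change -1.65), and ASS1 (argininosuccinate synthase) from 1035 ± 86.7 to 350.1 ± 72.4 (log2 fold change -1.56). Of 11 genes for creatine, taurine and inositol synthesis, ISYNA1 (inositol-phosphate synthase) fell from 2838 ± 92.8 to 1383 ± 299.6 (log2 fold change -1.04, but 0.16 under TMM over the table), and CKMT1B, a mitochondrial creatine kinase, rose from 7.54 ± 3.86 to 27.8 ± 10.9. The value of CKMT1B is uncertain, since reads can be split with its near-identical copy CKMT1A.

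Mitochondrial carriers of the SLC25 family were mostly lower: of the 4 listed, 3 fell and 1 rose, with 0 of the 3 lower past the threshold and 2 below 0 under TMM over the table. SLC25A37 (chromosome 8, 23528805 to 23575463) encodes mitoferrin-1, which brings iron into mitochondria for haem and iron-sulfur clusters. It was abundant, at 10100, 9406 and 10210 normalized counts in WT and 4590, 3306 and 3218 in CYGB-OE, where replicate 1 was the highest. The log2 fold change was -1.42 (SE 0.14; edgeR adjusted p = 2.94e-05; -0.22 under TMM over the table). SLC25A42, a carrier of coenzyme A and adenine nucleotides, fell from 653.2, 641.8 and 622.8 to 184.5, 304.9 and 262.6 (log2 fold change -1.35, SE 0.18; -0.15 under TMM). SLC25A27, which encodes UCP4, a relative of the uncoupling proteins, fell from 295.8, 305.9 and 366.7 to 124.8, 157.5 and 169 (log2 fold change -1.10, SE 0.17; 0.10 under TMM over the table). SLC25A34 rose from 14.3, 13.4 and 15.9 to 32, 34.6 and 27.3, a log2 fold change of 1.10 (SE 0.27).

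Iron handling outside the mitochondrion showed the opposite sign for its uptake receptor. TFRC, the transferrin receptor, rose from 4437, 5053 and 4719 normalized counts in WT to 14280, 12120 and 12650 in CYGB-OE (log2 fold change 1.46, SE 0.10; edgeR adjusted p = 5.54e-06). CP, the copper enzyme ceruloplasmin that oxidizes iron, fell from 93.4 ± 3.80 to 11.6 ± 9.77 (SD, n = 3 each; log2 fold change -2.99, and -1.80 under TMM over the table, still past the threshold). Without CYGB-OE replicate 1, its highest CYGB-OE library, the log2 fold change of CP was -3.83. These were the 2 genes in the table of 13 listed for iron and copper handling. Of the metal carriers, SLC30A3 was in the table. It encodes ZnT3, which loads zinc into synaptic vesicles, and it fell from 168.3, 156.5 and 158.4 to 36.3, 72.6 and 56.3 (log2 fold change -1.55, SE 0.25; -0.35 under TMM over the table). None of 11 metallothionein genes, 15 sodium pump genes and 14 names of accessory proteins of carriers were in the table, and they were not analysed here.

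Of 7 carriers of inorganic ions in the table, 6 were tested. Of these, 1 rose and 5 fell, where 70.9% of all features tested were lower. Under TMM over the table the 1 stayed higher, 2 stayed lower past the threshold and 4 below 0. SLC24A3 (chromosome 20, 19212646 to 19722937) encodes NCKX3, which exports calcium in exchange for sodium. It fell from 846.8, 792.7 and 799.2 normalized counts in WT to 167.5, 121.7 and 135.4 in CYGB-OE, with no library near the other group (log2 fold change -2.52, SE 0.15; edgeR adjusted p = 4.13e-06). Its relative SLC24A2 (NCKX2) had a log2 fold change of -1.36, or -0.16 under TMM over the table. SLC12A7, which encodes the potassium-chloride cotransporter KCC4, fell from 676.3, 494 and 711 to 160, 194.3 and 172.7 (log2 fold change -1.83, SE 0.17; edgeR adjusted p = 2.15e-05).

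SLC12A8, a divergent member of the same cation-chloride family, rose from 59.4, 45.1 and 56.3 normalized counts to 142.9, 142.9 and 155.4 in CYGB-OE. The groups were far apart and the log2 fold change was 1.46 (SE 0.19; edgeR adjusted p = 0.000114). The sodium-proton exchangers of organelles were lower. SLC9A7 (chromosome X, 46599252 to 46759172; NHE7, of the trans-Golgi network) fell from 2240, 2351 and 2561 to 1157, 999.4 and 976 (log2 fold change -1.19, SE 0.11), which became 0.01 under TMM over the table. SLC9A9 (NHE9, of endosomes) had a log2 fold change of -1.29, or -0.10 under TMM. SLC4A5, a sodium bicarbonate cotransporter, did not pass the filter on low counts, with 8.80, 17.4 and 12.8 normalized counts in WT and 1.07, 3.35 and 4.54 in CYGB-OE.

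The 4 carriers of carboxylates described here all fell, as did 70.9% of all features tested. Under TMM over the table all 4 stayed below 0 and SLC13A3 stayed past the threshold. SLC13A3 (chromosome 20, 46557823 to 46684467), the sodium-coupled carrier of succinate and other dicarboxylates, fell from 460.8, 475 and 462.3 to 122.7, 165.3 and 156.3 (log2 fold change -1.65, SE 0.15; edgeR adjusted p = 2.03e-05). The citrate carrier SLC13A5 had 23.1, 18.2 and 41.5 normalized counts in WT and 4.27, 7.82 and 1.82 in CYGB-OE, a log2 fold change of -2.57 with a wide SE of 0.53. SLC16A9, a gene of the monocarboxylate carrier family, fell from 215.5, 181 and 171.1 to 74.7, 62.5 and 59.1 (log2 fold change -1.53, SE 0.19), and SLC5A12, a sodium-coupled lactate carrier, had -1.39.

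The 2 carriers of nucleosides in the table had 2 of the 4 largest falls, and both stayed lower past the threshold under TMM over the table. The falls of SLC15A1, SLC28A3 and SLC17A7, larger than that of SLC29A4, rested on 1 to 6 counts in each CYGB-OE library, so this ranking is uncertain. SLC29A4 (chromosome 7, 5274369 to 5306870) encodes PMAT, which carries monoamines and adenosine. It fell from 587.3, 603.8 and 527.2 normalized counts in WT to 64, 91.6 and 104.5 in CYGB-OE (log2 fold change -2.72, SE 0.19; edgeR adjusted p = 6.97e-06). Every WT library was several times above every CYGB-OE library. SLC28A3 encodes CNT3, a sodium-coupled nucleoside carrier. It was scarce, at 16.5, 15.0 and 11.7 normalized counts in WT and 2.13, 1.12 and 0.909 in CYGB-OE, where the libraries held 2, 1 and 1 counts; the log2 fold change was -3.29 (SE 0.47).

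All 3 sugar carriers in the table fell, as did 70.9% of all features tested. The falls of these carriers were small or rested on few counts. With TMM over the table only SLC2A4 stayed below 0, and 0 of the 3 past the threshold. SLC2A4 encodes GLUT4, the insulin-responsive glucose carrier of muscle and fat. It went from 60.5, 41.1 and 41.5 normalized counts in WT to 8.53, 16.8 and 18.2 in CYGB-OE (log2 fold change -1.70, SE 0.35). SLC37A1, an exchanger of glucose-6-phosphate in the endoplasmic reticulum, fell from 104.5, 120.9 and 105.2 to 66.1, 51.4 and 38.2 (log2 fold change -1.09, SE 0.24; 0.10 under TMM). SLC5A2, the renal glucose carrier SGLT2, had 60.5, 51.4 and 38.3 in WT and 12.8, 27.9 and 30.9 in CYGB-OE, so the closest libraries of the groups nearly met. The log2 fold change was -1.06 (SE 0.36), called with edgeR adjusted p = 0.0171 and no longer called without WT replicate 1 (edgeR adjusted p = 0.0649), and its exons share 1390 of 4468 bases with C16orf58 on the opposite strand.

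Fatty acid carriers and the urea carrier were lower: of the 4 genes listed, 3 were tested and fell, with 2 below 0 and 0 past the threshold under TMM over the table. The share of all features tested that were lower was 70.9%. SLC27A1 (chromosome 19, 17468769 to 17506168) encodes FATP1, which promotes the uptake of long-chain fatty acids. It fell from 2859, 2700 and 2616 normalized counts in WT to 722.2, 1123 and 1202 in CYGB-OE, lowest in replicate 1 (log2 fold change -1.42, SE 0.18; edgeR adjusted p = 0.000103; -0.22 under TMM). SLC27A2 (FATP2) had a log2 fold change of -1.85, or -0.66 under TMM, and SLC27A6 (FATP6) did not pass the filter, at 9.90, 22.1 and 21.3 in WT and 4.27, 6.70 and 0.909 in CYGB-OE. SLC14A1, the urea carrier UT-B of red blood cells, fell from 897.4, 939.7 and 888.5 to 563.2, 317.1 and 340.8 (log2 fold change -1.16, SE 0.21; 0.04 under TMM), and CYGB-OE replicate 1 was the library nearest to WT.

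The carriers of organic ions and of neurotransmitters in the table, 2 of each, were all lower, as were 70.9% of all features tested. Of these carriers only SLC17A7 stayed past the threshold under TMM over the table. SLC22A23, an organic ion carrier family member without an established substrate, fell from 125.4, 174.7 and 146.7 normalized counts to 56.5, 26.8 and 23.6 (log2 fold change -2.07, SE 0.33; -0.87 under TMM over the table), and -2.57 without CYGB-OE replicate 1. SLCO1A2, an organic anion carrier of the blood-brain barrier, had 36.3, 18.2 and 17.01 in WT and 3.2, 11.2 and 4.54 in CYGB-OE (log2 fold change -1.91, SE 0.51; -0.72 under TMM over the table, no longer past the threshold), and without CYGB-OE replicate 2 its log2 fold change was -2.55. SLC17A7, which encodes VGLUT1, the carrier that fills synaptic vesicles with glutamate, fell from 19.8, 24.5 and 11.7 to 2.13, 2.23 and 1.82 (log2 fold change -3.14, SE 0.48; edgeR adjusted p = 0.00029). Each CYGB-OE library held 2 counts of it, so the size of this fall is uncertain. SLC44A3, of the choline carrier-like family, had a log2 fold change of -1.53 (SE 0.35), or -0.34 under TMM.

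**Figure D3:**
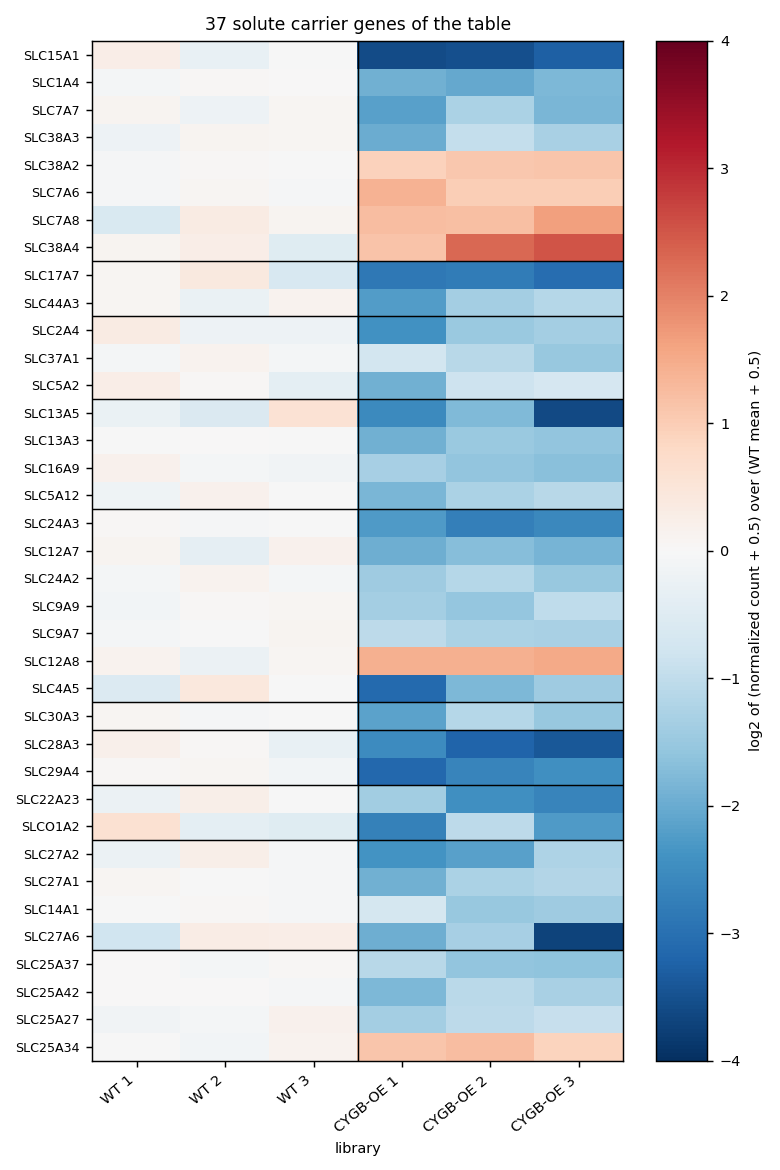
Each row is 1 of 37 solute carrier genes, ordered by substrate group (black lines), and each column a library; colour is the log2 of the normalized count plus 0.5 over the WT mean plus 0.5 (red higher, blue lower). The WT columns stay near 0, CYGB-OE replicate 1 differs from replicates 2 and 3 in many rows, and the amino acid carriers at the top hold 4 of the 6 red rows; with TMM over the table the log2 fold changes of SLC14A1, SLC25A27, SLC37A1, SLC5A2 and SLC9A7, blue here, turn slightly positive.

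The carriers, like the table as a whole, differed more between CYGB-OE replicate 1 and the other CYGB-OE libraries than among the WT libraries. The coefficient of variation over libraries had a median of 12.2% in WT and 24.5% in CYGB-OE, and it was larger in CYGB-OE for 33 of the 38 genes. The share of all features with a larger coefficient in CYGB-OE was not computed. Counting noise raises this coefficient at low counts, and most carriers had lower counts in CYGB-OE. Its part was not tested. The median absolute log2 difference over the carriers was 0.493 and 0.477 between CYGB-OE replicate 1 and replicates 2 and 3, 0.219 between replicates 2 and 3, and 0.174 to 0.208 between WT libraries. Over all features tested these differences were 0.461 and 0.474, 0.214, and 0.178 to 0.187. Replicate 1 was the lowest CYGB-OE library for 19 carriers, the highest for 10 and between the others for 9. The median log2 ratio of the carriers to their WT mean was -1.91 in replicate 1, -1.33 in replicate 2 and -1.46 in replicate 3. Without replicate 1 all 38 carriers passed the filter, with 6 higher and 32 lower and a median log2 fold change of -1.45, against 28.1% higher and 70.8% lower of all features in that fit. The same numbers passed and were called without CYGB-OE replicate 2 and without CYGB-OE replicate 3, so this is not particular to replicate 1.

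Levels of different carriers were compared per kilobase of annotated exon, over all transcripts of a gene, which approximates but does not equal the length of the transcript expressed. In WT the order began with SLC38A2, at 1843 ± 72.3 normalized counts per kb (SD, n = 3), then SLC25A37 at 1216 ± 53.8, SLC27A1 at 330.3 ± 15.0, SLC9A7 at 237.6 ± 16.3, SLC7A6 at 226.2 ± 12.8, SLC24A3 at 206.7 ± 7.50 and SLC1A4 at 197.2 ± 7.64. SLC9A7 and SLC7A6 did not differ beyond their spread, nor did SLC24A3 and SLC1A4. In CYGB-OE SLC38A2 was at 3796 ± 242.7 per kb, followed by SLC7A6 at 497.1 ± 82.0 and SLC25A37 at 454.7 ± 94.2, whose SDs overlapped. Both of these genes were highest in CYGB-OE replicate 1, and their levels were not compared within each library. The value of SLC7A6 may include reads of SLC7A6OS. SLC27A1 at 123.2 ± 31.2 and SLC9A7 at 104.1 ± 9.83 came next, and their SDs also overlapped. SLC24A3 was at 35.99 ± 5.97 and SLC1A4 at 52.1 ± 4.61. At the low end, 17 of the 38 carriers had a mean below 50 normalized counts over all libraries.

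**Figure D4:**
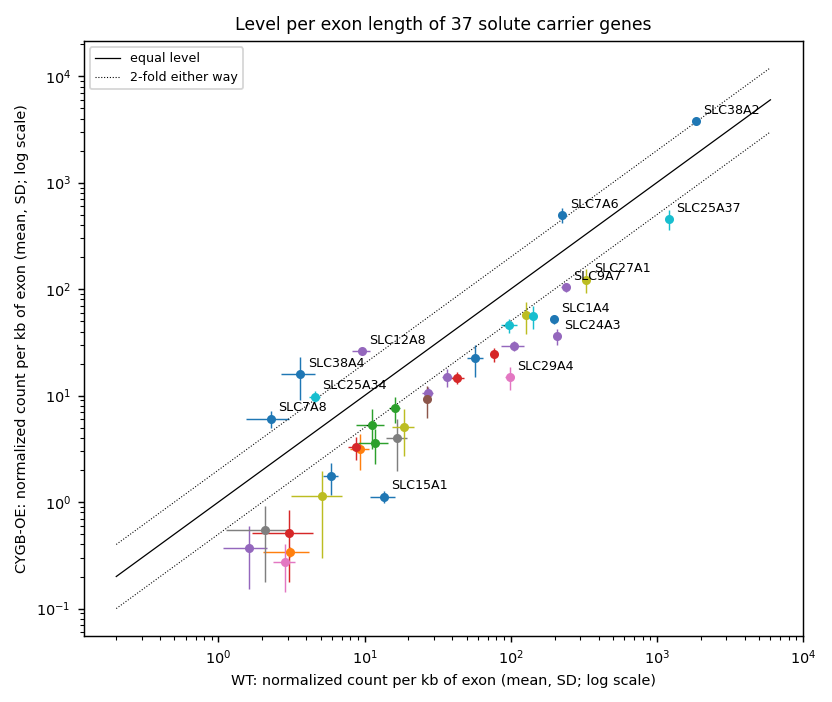
Normalized count per kb of exon in WT (horizontal) and CYGB-OE (vertical), both on log scales, for 37 solute carrier genes; points are means and bars SDs of 3 libraries, coloured by substrate group as in the plot of fold changes, with solid and dotted lines for equal and 2-fold different levels. SLC38A2 is highest in both groups (1843 and 3796 per kb). SLC7A6 lies above the line of equal level and SLC25A37 below it, and in CYGB-OE their SDs overlap (means 497.1 and 454.7 per kb).

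Counting is uncertain for some of these genes. Exons of 18 of the 38 carriers overlap exons of another annotated gene, in 16 of them on the opposite strand. For SLC4A5, AC006030.1 on the same strand covers 3809 of 8025 exonic bases, which no strand setting can resolve, and MTHFD2 on the opposite strand covers 1324. For SLC22A23 the overlap with PSMG4 is 1388 of 8898 exonic bases, for SLC27A2 the overlap with ATP8B4, which is itself in the table, is 557 of 2802, and for SLC24A3 the overlaps are 117 bases with AL136090.1, also in the table, and 167 with AL121830.1. When p-values were adjusted over all 58780 annotated genes, counting those outside the table as not significant, 4 carriers were higher and 27 lower, against 19.4% higher and 54.3% lower of the features tested. SLC7A8, SLC25A34, SLC44A3, SLC5A2 and SLCO1A2 then lost their calls (edgeR adjusted p = 0.0662, 0.0846, 0.0598, 0.407 and 0.137).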

How the data were processed

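RNA of 6 A375 libraries (3 WT, 3 CYGB-OE) was measured by poly(A) RNA sequencing. Per the submitters' processing notes, the tools named are featureCounts, Subread 1.5.2, STAR 2.5.2b and Trimmomatic 0.36, and GRCh38 as the build. Annotation, strand setting and the rule that selected the features were not given in the sources used here. As values, the authors deposited raw counts per gene, 1 column per library.

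Fits used edgeR 4.0.16 (R 4.3.3) on all 2778 features: filterByExpr (minimum count 10), TMM factors within each group, robust quasi-likelihood F test, two-sided, Benjamini-Hochberg over 2468 features tested. TMM over the table needs a majority of equal features, and this table holds only differing ones, so the level between groups was set from the middle of the empty band (width 1.99). Normalized counts were obtained by dividing counts by these factors; SEs were derived from the F statistic. Alternatives were other scalings, DESeq2 1.42.0, limma-voom (limma 3.58.1), no filter, each library left out, a replicate block and adjustment over all annotated genes. The tests were checked on simulated data. Coordinates and exon lengths are from GENCODE 29, promoter windows from RefSeq.

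The members and lists were chosen with earlier results of these data known. Values in every library are given for up to 3 members with the largest change per substrate group (mean normalized count of at least 50) and the most abundant one; other members with such values were chosen after they were seen. The values of 1 member are not reported here; it stays in the counts over all members.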

Additional observations from a re-analysis of the deposited data

How the results depend on the processing

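The 6 higher carriers stayed higher past the threshold under every scaling, test, filter and left-out library tried. The other scalings all raise the log2 fold changes, so they could not turn these 6 lower and are no check on them. The other tests, the filter and the left-out libraries are no independent check either, since features are in the table because they differed between these same libraries. Adjustment over all annotated genes left 4, with 19.4% of all features tested higher. The 30 lower carriers became 9 with TMM and 9 with DESeq2 size factors over the table, which were the same 9 genes, and the median log2 fold change became -0.278 and -0.272, or -1.13 with total counts; these scalings raise all log2 fold changes by 1.2, 1.21 and 0.345. Of all features tested 19.4% were lower with TMM and 19.3% with DESeq2 size factors. With TMM and DESeq2 size factors in turn, the log2 fold change was 0.042 and 0.054 for SLC14A1, 0.0992 and 0.105 for SLC25A27, 0.105 and 0.114 for SLC37A1, 0.139 and 0.142 for SLC5A2, and 0.0091 and 0.0177 for SLC9A7. Of the 5 related genes lower and 2 higher, both scalings left 1 lower, and adjustment over all annotated genes left 4 lower, without ASNS, and 1 higher, without CKMT1B. Without 1 library at a time, 30 to 32 carriers were lower and 6 higher, with medians from -1.6 to -1.45. Of all features in those fits 69.1% to 71.4% were lower and 27.5% to 29.5% higher. The DESeq2 Wald test and limma-voom at the main scaling called the same numbers, 6 higher and 30 lower. Of all features they called 28.9% and 28.5% higher and 71.1% and 70.8% lower, in turn. With the replicate number as a block the calls were also 6 higher and 30 lower, with a median of -1.49, against 28.8% higher and 70.9% lower of all features. Same-numbered libraries did not deviate together (correlations -0.00988, -0.0618 and -0.00217). This cannot show whether they shared a culture or a batch, which the labels do not give. The table's totals are not depths, so what depth limits cannot be stated beyond the 2 carriers that did not pass the filter on low counts.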
